A study of Mus musculus with 35 samples.

Results

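Of the 35 arrays of the series, 14 were compared here, chosen by their sample titles: 7 of SOD1 mice treated with G-CSF and 7 of SOD1 mice treated with vehicle, all at week 15 of age. All 14 mice were female littermates that carried the human SOD1 gene with the G93A mutation at high copy number on a C57/bl6 background. From week 11 to week 15 an osmotic minipump under the skin delivered filgrastim, a recombinant human G-CSF, or its sorbitol buffer alone. From sections of the lumbar spinal cord, 300 motoneurons per mouse were cut out by laser, and the amplified RNA of each mouse was hybridized to an Affymetrix mouse genome array of its own. WT littermates of week 15 (n = 7), for which no pump is mentioned, and untreated WT (n = 6) and SOD1 (n = 8) mice of week 11 entered the same fit and are given for their levels. Vehicle and G-CSF mice thus share the transgene, the pump and the age, whereas a difference from WT mice also holds the transgene and the pump. Of 45101 probe sets, called transcripts here, 34945 name one gene, and the genes described below come from these.

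G-CSF is a cytokine best known for driving the production of neutrophils. Its receptor, encoded by Csf3r, signals through Janus kinases to STAT transcription factors and to the PI3 kinase and MAP kinase pathways, and neurons, motoneurons among them, are known to carry it. Motoneurons with mutant SOD1 lose their contact with muscle before they die, and neurons cut off from their target are known to switch on a set of genes for stress and regrowth, including the transcription factor Atf3 and peptides such as galanin.

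The dissected material held transcripts of its labelled cell type. All 11 general neuron markers exceeded the array median on all 14 arrays, as did 11 of 14 motoneuron markers, and the other motoneuron markers exceeded the 20th centile of all values (2.40 on the log2 scale). Transcripts of other cells were present too. On all 14 arrays 9 of 12 astrocyte, 9 of 11 oligodendrocyte, 6 of 17 microglia, 6 of 10 endothelial and 3 of 16 neutrophil markers exceeded the array median. The same held for 6 of 11 markers of interneurons, 4 of 8 of lymphocytes and 0 of 3 of red blood cells. No marker of any list was below the 20th centile on all 14. The mouse Sod1 transcript that reads highest was at 12.40 ± 0.17 (SD, n = 7) with vehicle, 12.38 ± 0.06 with G-CSF and 12.36 ± 0.06 in WT mice, so this array cannot check the label of the human transgene. Spread between mice was wide in both treated groups: the median SD of a transcript was 0.499 with vehicle and 0.448 with G-CSF, against 0.326 in WT mice. Vehicle mice 3 and 5 stood apart from the rest on principal components 2 and 3, and results without them are given below.

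In the fit over all 35 arrays, 12 transcripts were called between G-CSF and vehicle, 4 higher and 8 lower with G-CSF, and 11 of them name one gene. A call asked for a 1.5-fold difference, an adjusted p under 0.1 (limma, Benjamini-Hochberg) and an unadjusted p under 0.05. These 12 were 0.0383% of the 31352 transcripts that passed the filter on intensity and spread, the 4 higher ones 0.0128% and the 8 lower ones 0.0255%. Lower with G-CSF were Uri1, Phex, Npy, Smim38, Mtap, Cnot10 and Cpne3, by 1.95-fold for Cpne3 to 5.64-fold for Uri1. Higher were Ccz1, Acot11, Chrnb2 and Ptger4, by 1.78-fold for Ccz1 to 3.97-fold for Ptger4. At an unadjusted p under 0.05 there were 2602 transcripts (8.3%). If nothing differed and all groups had the same spread, 1567.6 would be expected. The calls and these p-values borrowed their estimate of spread from all 5 groups, of which vehicle and G-CSF had the widest. The 3 groups of week 15 alone gave 2 calls, Cnot10 and Uri1. The 14 arrays alone gave 0, with 1258 transcripts at an unadjusted p under 0.05, fewer than the 1567.6. The count of 2602 is thus no measure of how many transcripts differ. The Tukey comparison of the methods, which adjusts over the 5-group test and not over this contrast, passed 353 transcripts, 195 higher and 158 lower, the 12 among them.

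**Figure D1:**
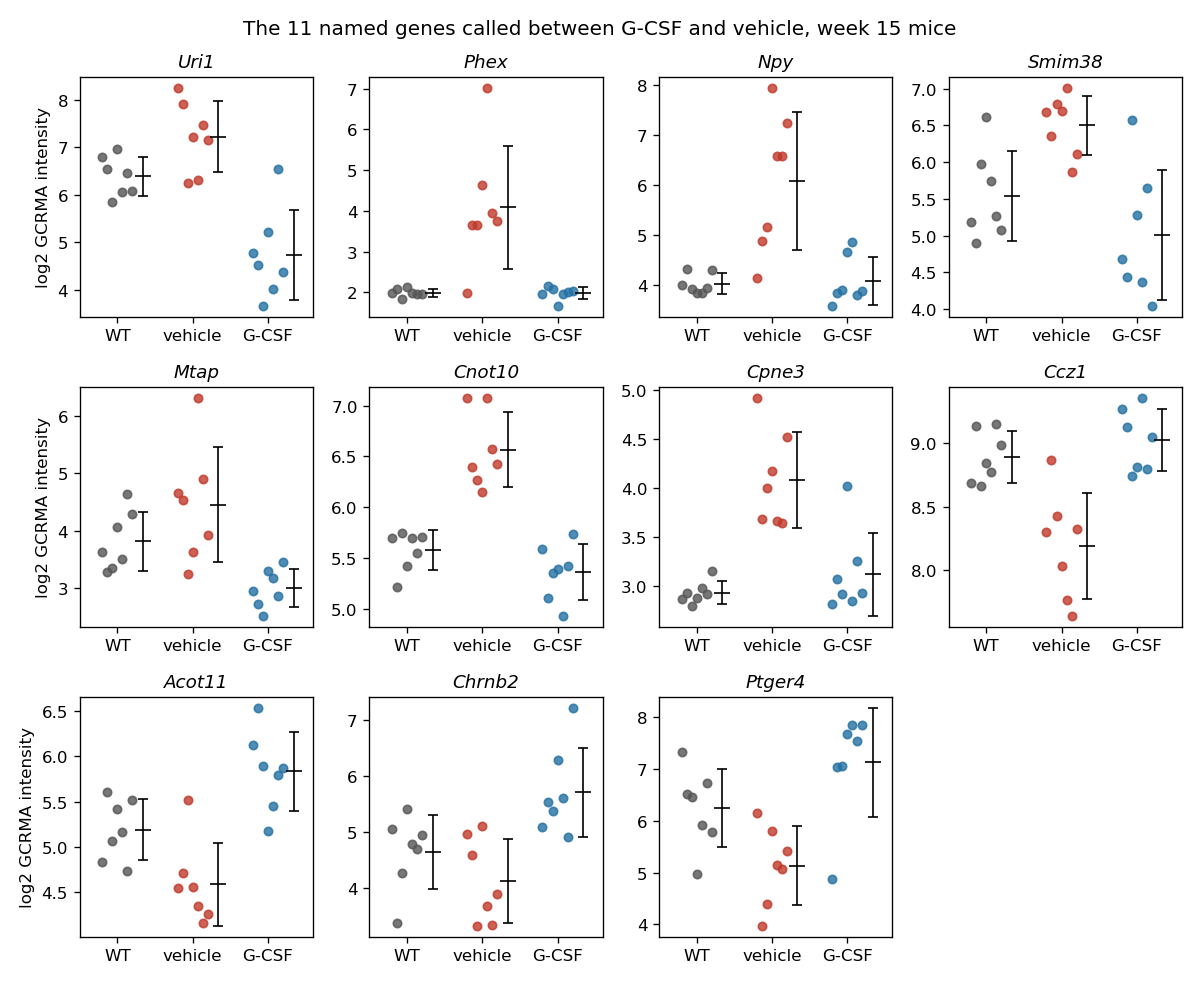
Log2 GCRMA intensity of the 11 named genes called between G-CSF and vehicle in each WT, vehicle-treated and G-CSF-treated mouse of week 15 (7 per group, 1 point per mouse, black bar and whiskers for the mean and SD). For Cnot10 the highest G-CSF mouse (5.74) lies below the lowest vehicle mouse (6.15), while for Phex the difference comes from vehicle mice spread between 1.99 and 7.01 above a G-CSF group at 1.98 ± 0.15.

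Cnot10 encodes a subunit of the CCR4-NOT complex, which shortens the poly(A) tails of mRNAs and so starts their decay. Its level ran from 6.15 to 7.07 (median 6.43) with vehicle and from 4.93 to 5.74 (median 5.39) with G-CSF. All 7 G-CSF mice were below all 7 vehicle mice. The groups did not overlap, in either direction, for 4 of the 31352 transcripts (0.0128%), and Cnot10 was the only one of these that was lower with G-CSF. How many would separate by chance with 7 mice against 7 was not tested, so the lack of overlap is a description. The difference on the log2 scale was −1.20 (SE 0.18, 2.30-fold, adjusted p = 0.00256, limma), and WT mice of week 15 were at 5.58 ± 0.20. The call was kept in all 14 fits that left out 1 mouse. Dimmer Cnot10 transcripts were at −0.40, −0.33 and −0.16, none called.

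Npy encodes neuropeptide Y, a transmitter peptide that injured sensory neurons are known to start making. With vehicle its level ran from 4.15 to 7.93 (median 6.57), and with G-CSF from 3.59 to 4.85 (median 3.88). Of the 7 G-CSF mice, 5 lay below every vehicle mouse, and 1 vehicle mouse lay within the G-CSF range. The difference was −2.00 (SE 0.35, 4.00-fold, adjusted p = 0.0247, limma). WT mice of week 15 were at 4.03 ± 0.21 and the week 11 groups at 3.77 ± 0.31 (WT) and 3.91 ± 0.29 (SOD1). The vehicle mice differed widely among themselves (SD 1.37).

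Uri1 encodes a chaperone-like protein of the prefoldin family that binds a subunit of RNA polymerases. Its vehicle values ran from 6.25 to 8.25 (median 7.21) and its G-CSF values from 3.66 to 6.55 (median 4.51), with 6 of 7 G-CSF mice below every vehicle mouse. The difference of −2.49 (SE 0.43, 5.64-fold, adjusted p = 0.0214, limma) was the largest of the calls. In contrast to Npy, WT mice of week 15 (6.39 ± 0.41) lay between the groups, and the G-CSF mice (4.73 ± 0.94) had the lowest mean of all 5 groups. A second, brighter Uri1 transcript differed by −0.36 (adjusted p = 0.583).

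Phex encodes an endopeptidase whose loss leads to phosphate wasting. It was at 1.98 ± 0.15 with G-CSF and 1.99 ± 0.09 in WT mice, below the 20th centile, and at 4.09 ± 1.51 with vehicle, where 1 mouse reached 7.01 and the lowest, at 1.99, was at the WT level. The difference was −2.11 (SE 0.40, adjusted p = 0.0555, limma). Since GCRMA draws dim transcripts towards a common low level, its fold is hard to size. Another Phex transcript, which did not pass the filter, was at 2.81 with vehicle and 2.78 with G-CSF (difference −0.03). The difference is thus shown for the called transcript alone, and the dim second transcript cannot settle whether the gene differs. The call was lost without G-CSF mouse 4 (adjusted p = 0.117) or G-CSF mouse 5 (0.134).

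Smim38, which encodes a small membrane protein, was called by 1 of its transcripts. Vehicle mice ran from 5.86 to 7.00 (median 6.68) and G-CSF mice from 4.05 to 6.57 (median 4.69), a difference of −1.49 (SE 0.31, adjusted p = 0.0934, limma). A second Smim38 transcript, which reads brighter, moved by a like amount (−1.42, SE 0.36, adjusted p = 0.222) but was not called. WT mice of week 15 were at 5.54 ± 0.61, between the groups.

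For Mtap and Cpne3 the called transcript was the dimmest, or nearly so, of its gene. Mtap encodes methylthioadenosine phosphorylase, an enzyme of methionine salvage, and Cpne3 a copine, a protein that binds membranes when calcium rises. Mtap differed by −1.46 (SE 0.31, adjusted p = 0.0934, limma), with 3.25 to 6.31 (median 4.53) in vehicle mice and 2.51 to 3.45 (median 2.95) in G-CSF mice. Its brighter transcripts were at +0.14, +0.45 and −0.65. Cpne3 differed by −0.96 (SE 0.20, adjusted p = 0.0934), with 3.65 to 4.91 (median 4.00) in vehicle mice and 2.82 to 4.02 (median 2.93) in G-CSF mice. Its brighter transcripts differed the other way, by +0.40 and +0.28. No other transcript of either gene was called, so the direction holds for the named transcript and not for the gene.

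Ccz1 encodes a protein that works with Mon1 to activate Rab7, the switch by which endosomes mature towards lysosomes. Vehicle mice ran from 7.63 to 8.87 (median 8.30) and G-CSF mice from 8.74 to 9.36 (median 9.06), with 4 of 7 G-CSF mice above every vehicle mouse. The difference was +0.83 (SE 0.15, 1.78-fold, adjusted p = 0.0433, limma). WT mice of week 15 were at 8.89 ± 0.20, WT mice of week 11 at 9.13 ± 0.22 and SOD1 mice of week 11 at 9.22 ± 0.22. The call was lost without G-CSF mouse 5 (adjusted p = 0.134).

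Ptger4 encodes EP4, a receptor for prostaglandin E2 that raises cyclic AMP. Vehicle mice ran from 3.98 to 6.14 (median 5.15) and G-CSF mice from 4.88 to 7.84 (median 7.53), and 6 of 7 G-CSF mice were above every vehicle mouse. The difference was +1.99 (SE 0.40, 3.97-fold, adjusted p = 0.0742, limma), and WT mice of week 15 were at 6.24 ± 0.76. The call was kept in 8 of 14 fits without 1 mouse. It was lost without vehicle mouse 2 or 6 or without G-CSF mouse 4, 5, 6 or 7, where the adjusted p reached 0.146 at most. A second, dim Ptger4 transcript was at +0.27.

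Chrnb2 and Acot11 were also higher, each by 1 of its transcripts. Chrnb2 encodes the beta2 subunit of neuronal nicotinic acetylcholine receptors. It ran from 3.32 to 5.10 (median 3.89) with vehicle and from 4.90 to 7.21 (median 5.52) with G-CSF, a difference of +1.59 (SE 0.33, adjusted p = 0.0934, limma). Its other transcripts were dimmer and differed by −0.05 and −0.07. Acot11 encodes a thioesterase that splits fatty acyl-CoA. It ran from 4.16 to 5.52 (median 4.55) with vehicle and from 5.18 to 6.53 (median 5.87) with G-CSF, a difference of +1.25 (SE 0.26, adjusted p = 0.0934), and its other transcript was at −0.20. For both genes 5 of 7 G-CSF mice exceeded every vehicle mouse, and WT mice of week 15 lay between the groups, at 4.64 ± 0.67 for Chrnb2 and 5.19 ± 0.34 for Acot11. The last of the 12 calls, a transcript that names no gene, was lower (−1.19, SE 0.24, adjusted p = 0.0734).

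Calls differed in how often they were kept. Without 1 mouse, Npy, Uri1 and Cnot10 kept their call in 14 of 14 fits, Ccz1 in 13 and Phex in 12, whereas Ptger4 and Chrnb2 kept it in 8, Smim38, Cpne3 and the unnamed transcript in 6 and Acot11 and Mtap in 3. For Smim38, Cpne3, Acot11, Mtap and Chrnb2 the adjusted p without 1 mouse did not exceed 0.199. None of the 11 genes changed direction in any of these fits.

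The promoters of the called genes were searched for TTCNNNGAA (N for any base), the palindrome that STAT factors bind and that reads the same on both strands, since the G-CSF receptor acts through STAT3 and STAT5. RefSeq promoters (GRCm38.p6, 250 bases before to 50 after a start) were given for 10 of the 11 genes. The letters occurred in 1 of the 10, Smim38, against 9.55% of 27025 genes, and in 2 of 24 genes of the JAK-STAT list, Socs3 and Cish. The 250 bases before the start are shown for Smim38, with the match in capitals, and for Cnot10, Npy and Uri1, which kept their call without any 1 mouse and hold no match in this window.
Smim38, chr7:145208120-145208369, minus strand: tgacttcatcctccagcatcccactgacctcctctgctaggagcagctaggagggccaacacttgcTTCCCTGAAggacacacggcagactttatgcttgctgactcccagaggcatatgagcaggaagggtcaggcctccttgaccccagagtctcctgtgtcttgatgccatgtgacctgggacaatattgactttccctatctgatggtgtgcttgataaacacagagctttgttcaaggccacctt
Cnot10, chr9:114640201-114640450, minus strand: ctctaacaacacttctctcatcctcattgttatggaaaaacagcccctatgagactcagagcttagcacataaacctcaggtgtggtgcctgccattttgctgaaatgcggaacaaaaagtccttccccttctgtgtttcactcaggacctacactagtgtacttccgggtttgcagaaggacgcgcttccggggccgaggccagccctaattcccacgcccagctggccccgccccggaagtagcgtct
Npy, chr6:49822460-49822709, plus strand: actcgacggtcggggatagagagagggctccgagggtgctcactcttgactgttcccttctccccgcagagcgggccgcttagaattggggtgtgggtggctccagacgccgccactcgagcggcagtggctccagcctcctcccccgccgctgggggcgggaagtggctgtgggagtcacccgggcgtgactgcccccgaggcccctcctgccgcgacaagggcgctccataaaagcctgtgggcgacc
Uri1, chr7:38019553-38019802, minus strand: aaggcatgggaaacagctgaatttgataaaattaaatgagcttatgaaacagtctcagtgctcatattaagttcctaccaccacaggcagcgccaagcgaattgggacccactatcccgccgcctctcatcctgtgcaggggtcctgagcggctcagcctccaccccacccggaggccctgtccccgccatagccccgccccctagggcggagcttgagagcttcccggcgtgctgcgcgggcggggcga
The match in Smim38 starts 184 bases before the start.

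Of the genes the study followed by PCR, Cnot10 was called and Ctsb, Prss12 and Bmpr1a were not. Ctsb encodes cathepsin B, a lysosomal protease. It was lower at the listed transcript, from 7.39 to 8.66 (median 7.87) with vehicle against 6.94 to 7.73 (median 7.02) with G-CSF, a difference of −0.78 (SE 0.24, adjusted p = 0.343, limma), while the brightest of its other transcripts differed by +0.03. Prss12 encodes neurotrypsin, a protease that cleaves agrin at synapses. It ran from 4.39 to 6.47 (median 5.46) with vehicle and from 5.09 to 7.71 (median 6.15) with G-CSF, a difference of +0.92 (SE 0.34, adjusted p = 0.44), and the groups overlapped over most of their range. Bmpr1a encodes a type I receptor for bone morphogenetic proteins. Its listed transcript ran from 2.20 to 3.41 (median 2.90) with vehicle and from 2.96 to 5.65 (median 4.43) with G-CSF, a difference of +1.35 (SE 0.36, adjusted p = 0.263), and its brightest transcript differed by +0.40 (SE 0.21).

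The study's tables of transcripts regulated by G-CSF hold 55 that name one gene here. They were picked on these same arrays, so their direction is not independent evidence. All 55 had the listed direction and an unadjusted p under 0.05, and 4 were called, Phex, Npy, Cnot10 and Cpne3, all among the 27 listed as lower. Those 27 had a median difference of −1.20 and ran from −2.15 for Lce1g to −0.58 for Smarcd3. The 28 listed as higher had a median of +1.34 and ran from +0.75 for Cpt1a to +2.15 for Immp1l, with 0 calls and a lowest adjusted p of 0.144. Many of those listed as lower were dim in every group but the vehicle mice. Lce1g, a protein of the skin barrier, was at 4.56 with vehicle against 2.41 with G-CSF and 2.50 in WT mice, and the clock repressor Cry1 was at 3.38 against 2.55 and 2.27. The transcripts listed as higher were brighter. Immp1l, which encodes a mitochondrial inner membrane peptidase, was at 4.53 with vehicle, 6.68 with G-CSF and 6.38 in WT mice. Kcnq5, a potassium channel of the M current, was at 4.03, 5.81 and 7.71 in the same order (difference +1.79, SE 0.47, adjusted p = 0.23). For lipid enzymes, Acer3, an alkaline ceramidase, was at 2.53, 4.63 and 4.49. Elovl4, which lengthens very long fatty acids, was at 5.54, 6.44 and 6.99. Cpt1a, which brings fatty acids into mitochondria, was at 6.69, 7.44 and 8.14. The listed Elovl4 transcript was not the brightest of its gene. Over 32 tested genes of fatty acid metabolism, each by its brightest transcript, the smallest adjusted p was 0.492 (limma).

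**Figure D2:**
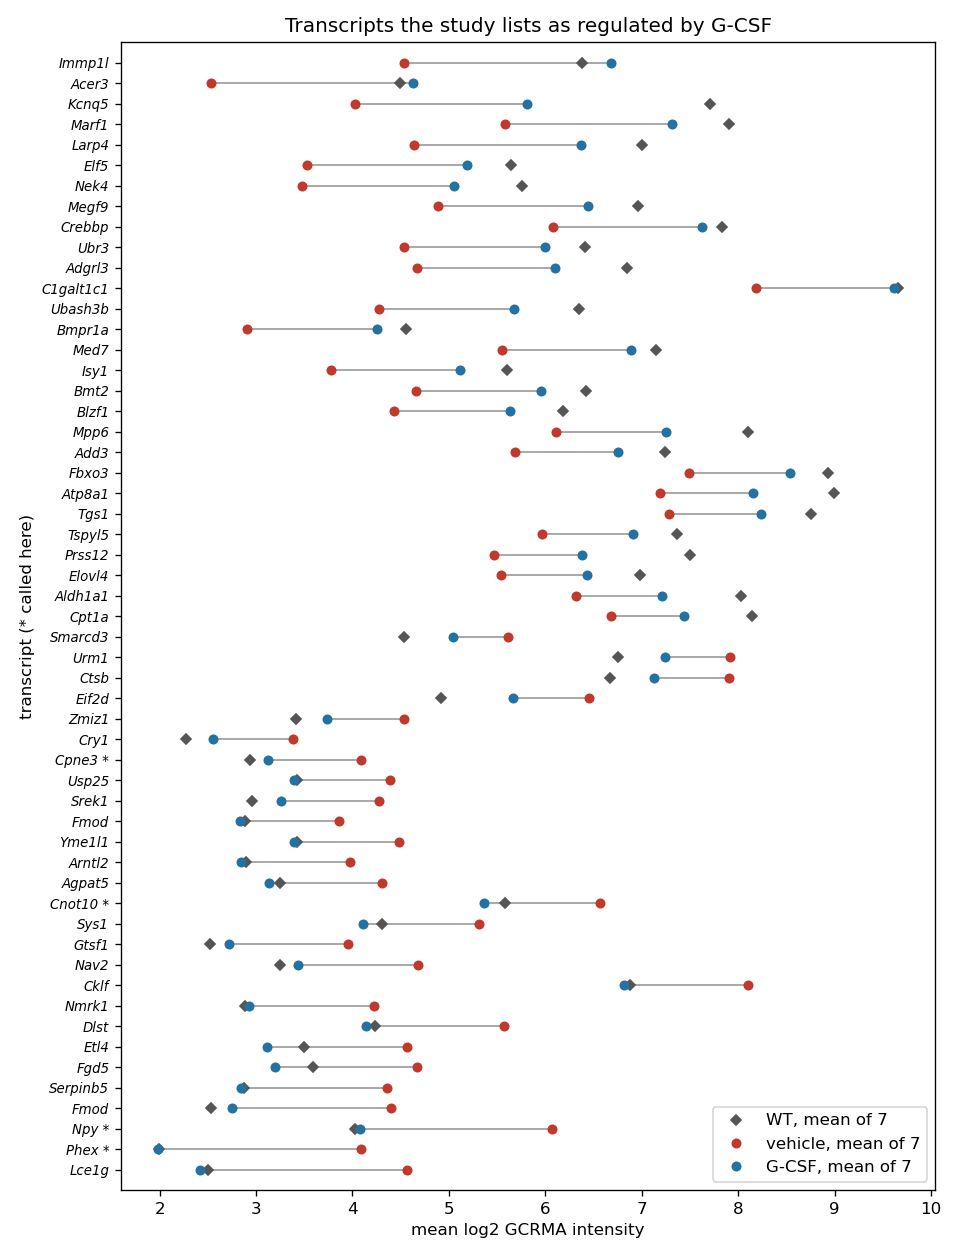
Mean log2 GCRMA intensity of 55 transcripts that the study lists as regulated by G-CSF, in WT (diamonds), vehicle-treated (red) and G-CSF-treated (blue) mice of week 15, 7 mice per mean, sorted by the G-CSF minus vehicle difference. The study chose these transcripts on the same arrays, so where the WT mean lies is a description. Phex, Npy, Cnot10 and Cpne3, marked with a star, were called here.

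No gene of G-CSF signalling was called. Of 27 tested genes of the receptor and the JAK-STAT pathway, 1 had an unadjusted p under 0.05 (3.7%), against 8.64% of 14256 genes in all (4.94% higher and 3.7% lower; 0.0491% called), and their median difference was −0.11, against 0.01 over all genes. Csf3r was dim, at 3.24 ± 0.18 with vehicle and 3.13 ± 0.16 with G-CSF (difference −0.12, SE 0.12), close to the array medians of 3.19 to 3.47. The kinase Jak2 was at 7.38 ± 0.52 and 7.01 ± 1.32, Stat3 at 5.91 ± 0.30 and 5.67 ± 0.31, and Stat5b at 4.41 ± 0.91 and 4.59 ± 0.34. Feedback genes that STAT factors are known to turn on had no call either. Socs3, the inhibitor of the receptor, was at 6.91 ± 1.32 with vehicle and 6.73 ± 0.91 with G-CSF, Cish at 4.43 ± 0.33 and 4.31 ± 0.31, and Pim1 at 6.49 ± 0.62 and 6.33 ± 0.48. The 1 gene with a low p was Pik3r1, the regulatory subunit of PI3 kinase, at 6.44 ± 0.52 with vehicle and 5.32 ± 0.78 with G-CSF (difference −1.12, SE 0.32, adjusted p = 0.287, limma).

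In the CCR4-NOT list, 1 of 15 tested genes was called, Cnot10, against 0.0491% of all genes, and the median of the list was +0.06. The deadenylase subunits Cnot7 and Cnot6 differed by +0.15 (SE 0.20) and −0.05 (SE 0.34), and Cnot11, which binds Cnot10 in the complex, by −0.14 (SE 0.34). The scaffold partner Cnot2 differed by +0.49 (SE 0.21, adjusted p = 0.527). Among 13 La-related and poly(A)-binding proteins 0 were called. The 2 with an unadjusted p under 0.05 (15.4%, against 8.64% of all genes) were both higher. The translation factor Paip1 differed by +0.50 (SE 0.16) and Larp4 by +0.70 (SE 0.32). This was the brightest Larp4 transcript. A dimmer one, which the study lists, differed by +1.73 (SE 0.50, adjusted p = 0.287, limma).

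Genes that injured axons switch on had lower levels with G-CSF for some members and not for others. Of 35 tested genes 1 was called, Npy, against 0.0491% of all 14256 genes. An unadjusted p under 0.05 was found for 6 (17.1%, against 8.64% of all genes), 4 lower and 2 higher. The median of the list was −0.21. These p-values borrowed their spread from all 5 groups, so such shares do not measure how many genes differ. Gal, which encodes galanin, was at 5.67 ± 1.06 with vehicle, 4.90 ± 0.19 with G-CSF and 4.02 in WT mice (difference −0.77, SE 0.27, adjusted p = 0.425, limma). The transcription factor Sox11 was at 8.29 ± 0.97, 6.88 ± 1.99 and 5.71 in the same order, and Atf3 at 6.62 ± 0.88 with vehicle and 5.71 ± 1.47 with G-CSF. The growth cone protein Gap43 was at 7.98 ± 0.64, 7.30 ± 0.88 and 4.82, and Sprr1a at 7.23 ± 0.91, 6.04 ± 1.76 and 2.86. None of these 4 was called, and the G-CSF mice differed widely among themselves, with SDs up to 1.99. The largest difference the other way was that of the peptide Crh (+1.49, SE 0.83). Bdnf, a neurotrophin, was also higher, at 5.31 ± 0.74 with vehicle and 6.14 ± 0.29 with G-CSF (difference +0.84, SE 0.32, adjusted p = 0.482). Averaged over the 35 genes, the level of a mouse ran from 6.45 to 7.48 (median 7.15) with vehicle and from 6.03 to 7.56 (median 6.85) with G-CSF, so the lowest and the highest mouse were both G-CSF mice.

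The neuropeptide list shared Npy, Gal, Vip, Adcyap1, Nts and Crh with the injury genes. It held 1 call of 19, Npy, against 0.0491% of all genes, with a median of −0.15. Penk, the precursor of enkephalins, was at 5.72 ± 1.27 with vehicle and 4.49 ± 1.25 with G-CSF (difference −1.24, SE 0.48, adjusted p = 0.484, limma). Other peptide transcripts had differences close to 0: Calcb was at 11.6 in both groups (difference +0.04, SE 0.14) and Chgb at 10.7 (−0.03, SE 0.16). The Crh difference came from G-CSF values with an SD of 2.31 around a dim mean of 3.93.

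Markers of other cells were set beside these lists, since fewer cells of a type and less RNA per cell cannot be told apart in such material. Of 12 astrocyte markers 0 were called and 2 were higher with G-CSF, against 7406 of all 14256 genes, with a median of −0.26. Gfap was at 8.48 ± 0.96 with vehicle and 7.56 ± 1.24 with G-CSF (difference −0.91, SE 0.57), against 4.78 in WT mice, and the water channel Aqp4 at 8.87 ± 0.69 and 8.06 ± 0.59 (difference −0.80, SE 0.28, adjusted p = 0.414, limma). The mean level of the 12 markers ran from 7.11 to 7.87 with vehicle and from 6.89 to 7.45 with G-CSF. Of 15 microglia markers 0 were called and 4 were higher with G-CSF, with a median of −0.13 and mean levels from 4.02 to 5.34 and from 3.70 to 5.95. Tyrobp was at 6.48 ± 1.60 and 5.92 ± 1.84, and Csf1r at 8.44 ± 1.09 and 8.53 ± 1.08. Neutrophil markers, genes of the cells that G-CSF multiplies in blood, had 0 calls among 11 and a median of 0.00. An unadjusted p under 0.05 was found for 2 of them (18.2%, against 8.64% of all genes). Prtn3 was lower (−0.34, SE 0.16) and Mmp9, which is also on the motoneuron list, higher (+0.71, SE 0.28). The neutrophil genes S100a8, S100a9 and Mpo lay between 2.52 and 2.78 in both groups. The part of these markers in the lower injury and peptide transcripts was not tested.

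Motoneuron markers had 0 calls among 14 and a median of −0.04. Of the 14, 7 were higher with G-CSF. An unadjusted p under 0.05 was found for 2 (14.3%, against 8.64% of all genes), both higher. Chodl was at 8.44 ± 0.65 with vehicle, 9.36 ± 1.03 with G-CSF and 11.3 in WT mice (difference +0.92, SE 0.33, adjusted p = 0.423, limma). Mmp9, also a neutrophil gene, was at 6.05 ± 0.46, 6.77 ± 0.93 and 7.99 in the same order. The cholinergic genes Chat and Slc5a7 differed by −0.29 (SE 0.32) and −0.45 (SE 0.41), and Isl1 by +0.01 (SE 0.33). General neuron markers had 0 calls among 11 and a median of +0.06.

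Among the other lists 0 genes were called, and medians ran from −0.25 for 20 circadian clock genes to +0.20 for 23 genes of apoptosis and the p53 pathway. The clock list had 3 members with an unadjusted p under 0.05 (15%), all lower, Cry1, Tef and Arntl2, against 3.7% of all genes lower at that p. The study lists Cry1, by this transcript, and Arntl2, by another, as lowered by G-CSF. It picked them on these same arrays, so their direction is not independent evidence. The Kcnq5 transcript led the 28 potassium channel subunits, and Kcna6, Kcnn1 and Kcnma1 differed by +0.70 (SE 0.25), +0.89 (SE 0.38) and +0.85 (SE 0.40), all with an adjusted p of 0.43 or more (limma). Of 40 genes of oxidative phosphorylation 31 were higher with G-CSF, against 7406 of all 14256 genes, and the median was +0.13. In this list 4 genes had an unadjusted p under 0.05 (10%, against 8.64% of all genes), all higher, by +0.32 for Cox5b to +0.68 for Ndufs4. Averaged over the 40 genes, the level of a mouse ran from 9.24 to 9.87 with vehicle and from 9.10 to 9.92 with G-CSF. The G-CSF range thus enclosed the vehicle range. Proteasome subunits (33 genes) and protein folding genes (30) had medians of +0.13 and +0.14. The list of trophic factors and receptors had 2 genes with an unadjusted p under 0.05 each way among 26 (15.4%, against 8.64% of all genes). Bdnf and Prss12 were higher and Gfra1 and Fgfr2 lower. Prss12 is a protease that was placed on this list, and the study chose it for PCR from these same arrays. For the integrated stress response (29 genes) the median was −0.10, and for aminoacyl-tRNA synthetases (18 genes) +0.02. Without vehicle mice 3 and 5 several small medians had the other sign: that of the synthetases was −0.07, of general neuron markers −0.09, of La-related proteins −0.02 and of the CCR4-NOT list −0.09. Those of the clock, injury and astrocyte lists were −0.31, −0.23 and −0.20. The lists not yet described had medians of +0.04 (BMP and Smad), +0.07 (fatty acid metabolism), −0.07 (cholesterol), +0.03 (lysosome), +0.02 (ubiquitin ligases), +0.04 (synaptic vesicle), +0.06 (glutamate receptors), +0.18 (interneuron markers), −0.08 (oligodendrocyte markers), 0.00 (endothelial markers) and +0.07 (2 lymphocyte markers).

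**Figure D3:**
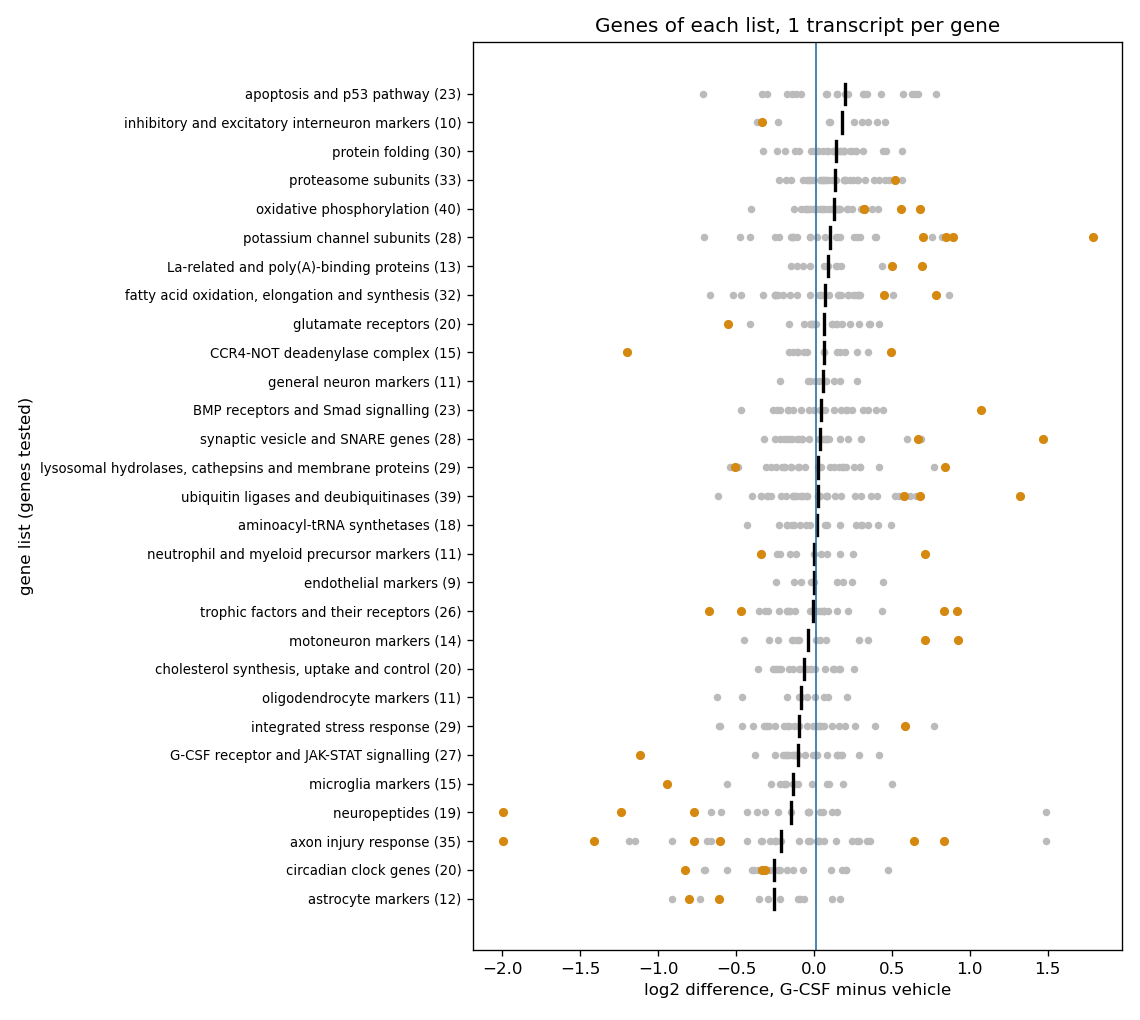
Log2 difference between G-CSF and vehicle for the genes of each list (1 point per gene, the transcript with the highest mean; orange where the unadjusted p is under 0.05), with the median of the list as a black line and the median of all 14256 genes (0.01) as a blue line. Most genes lie within 0.5 of 0, and Npy and Cnot10, at −2.00 and −1.20, are the only ones called.

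Apart from Cnot10, 3 transcripts had groups that did not overlap, all higher with G-CSF and none called. They are named here because their values had been seen, and their lack of overlap, too, is a description. Prkcz, an atypical protein kinase C, ran from 4.38 to 6.94 with vehicle and from 6.99 to 8.30 with G-CSF (difference +1.42, SE 0.31, adjusted p = 0.117, limma). Tmem86a, an enzyme of ether lipid breakdown, ran from 6.80 to 7.76 and from 7.84 to 8.29 (difference +0.72, SE 0.18, adjusted p = 0.222). Gyg, the glycogenin that primes glycogen, ran from 4.03 to 6.12 and from 6.17 to 7.37 (difference +1.25, SE 0.46, adjusted p = 0.439).

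Mice of week 11, none of which is in the comparison, gave the level of the called transcripts at the age when treatment began. Their arrays stood apart from those of week 15: the 18S control was at 10.1 and 10.7 in WT and SOD1 mice of week 11 and between 12.7 and 13.1 in the groups of week 15, and the medians of the first principal component were −51.2 and −58.1 against 7.91 to 38.9. Levels of the 2 ages set side by side, as for Npy and Ccz1, hold this difference too, and age and these array differences cannot be told apart. The SOD1 minus WT difference of the 12 had a median of +0.11 and ran from −0.34 for Ptger4 to +0.44 for Cpne3, against a median within-group SD of 0.388. Npy differed by +0.13, Cnot10 by +0.25 and Uri1 by +0.22 at that age, against G-CSF differences of −2.00, −1.20 and −2.49.

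Mice of the same group differed widely. On the first principal component (21.5% of the variance) vehicle mice ran from 20.5 to 91.0 (median 38.9) and G-CSF mice from −0.44 to 108.8 (median 18.2), against −7.04 to 30.7 in WT mice of week 15. G-CSF mice 2 and 3 had the high values, at 82.1 and 108.8. With the 3 nearest neighbours over 734 transcripts of high spread, G-CSF mice 2 and 3 were classed as vehicle, mice 1, 4 and 6 as WT of week 15 and mice 5 and 7 as SOD1 of week 11. Of the vehicle mice, 4 were classed as vehicle, 2 as WT of week 15 and 1 as SOD1 of week 11, and 23 of the 28 mice outside the G-CSF group were given their own class. With 1 neighbour, or with transcripts of an SD over 1.0, 2 vehicle mice were classed as vehicle, and 19 or 21 of the 28 were given their own class. RNA quality differed between these mice too: the 3′ minus 5′ level of Gapdh was 7.05 and 7.18 in G-CSF mice 2 and 3 and between 5.11 and 6.44 in the others, with group means of 5.89 ± 0.64 for vehicle and 6.16 ± 0.76 for G-CSF.

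**Figure D4:**
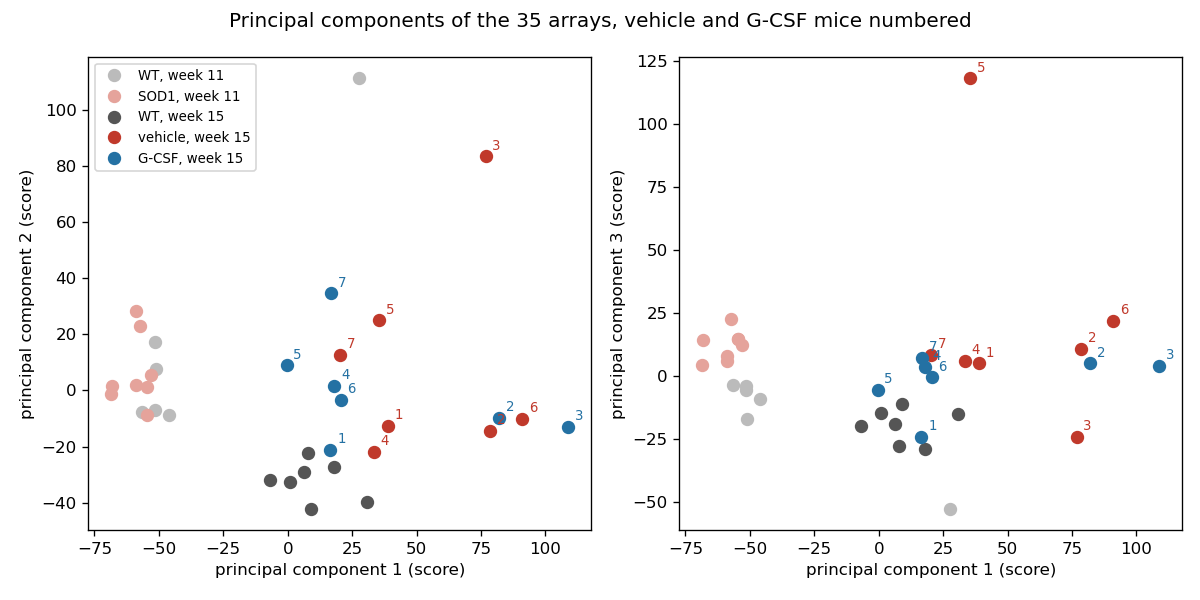
Scores of the 35 arrays on principal components 1 and 2 (left) and 1 and 3 (right), 1 point per mouse, coloured by group, with vehicle (red) and G-CSF (blue) mice numbered. Of the G-CSF mice, 5 lie between −0.44 and 20.7 on the first component and mice 2 and 3 beyond 82, while vehicle mice 3 and 5 stand apart on components 2 and 3.

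The number of calls depended on single mice. It ran from 4 without G-CSF mouse 5 to 48 without vehicle mouse 4, and was 37 without vehicle mouse 3, 34 without vehicle mouse 7, 19 without G-CSF mouse 2 or 3, and 7 without G-CSF mouse 4. Without vehicle mice 3 and 5 there were 43 calls, 11 higher and 32 lower, and 9 of the 12 were kept, with Smim38, Chrnb2 and Ptger4 lost (adjusted p = 0.168, 0.195 and 0.125, limma). Among those gained were Snx10, a sorting nexin of endosomes (−2.28, adjusted p = 0.00906), Gal (−1.06, adjusted p = 0.063), and Immp1l and Kcnq5 of the study's tables (+2.47 and +2.07).

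**Figure D5:**
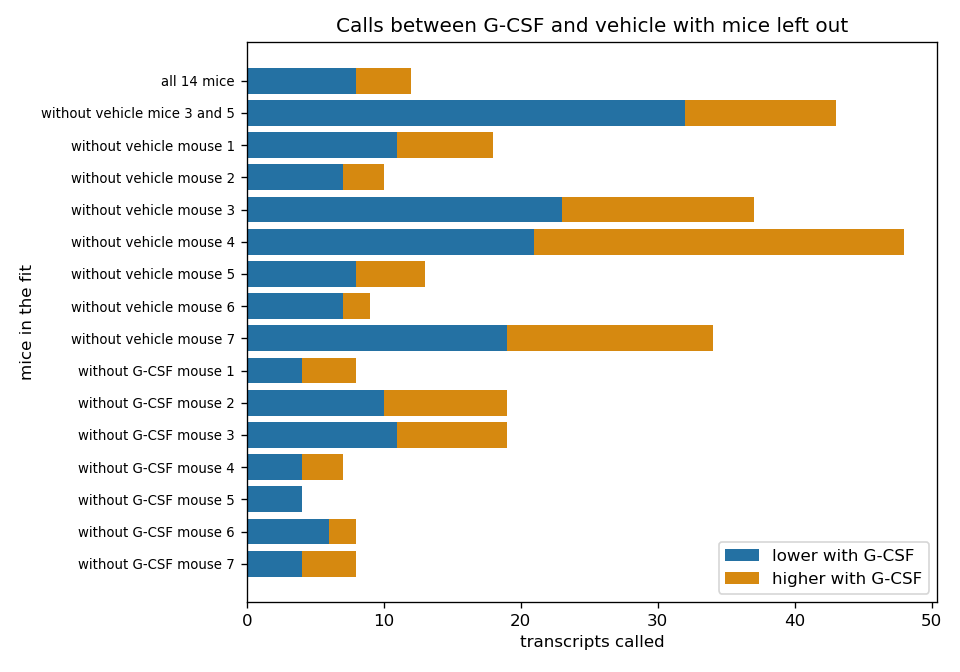
Number of transcripts called between G-CSF and vehicle with all 14 mice and with the named mice left out, split into lower (blue) and higher (orange) with G-CSF. The count is 12 with all mice, 4 without G-CSF mouse 5 and 48 without vehicle mouse 4.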

How the data were processed

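RNA of laser-dissected motoneurons was measured with 1 Affymetrix array per mouse. The authors used the GCRMA algorithm of Affymetrix Expression Console, with a version not given in the sources used here, and deposited log2 intensities for 45101 probe sets, 64 of them controls. Depth has no counterpart on arrays, and 7 mice per group limit the precision. Groups were taken from the sample titles. Probe sets were named through the platform annotation: 34945 name one gene, 932 several and 9224 none.

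As in the methods, probe sets had to exceed the 20th centile on at least 4 arrays and reach the 30th centile of the SDs (0.241). This kept 31352, of which 25580 name one gene (14256 genes). A linear model with a mean for each of the 5 groups and moderated variances was fitted in limma 3.58.1 under R 4.3.3. Calls followed the thresholds of the methods: unadjusted p under 0.05, Benjamini-Hochberg adjusted p under 0.1, at least 1.5-fold. Named are the called genes, the genes of the study's tables and PCR, defining markers, Csf3r and Sod1. Other members of lists were named after their values were seen. Of 31 gene lists, the probe set with the highest mean stood for each gene, and the red blood cell list had no gene left. The members and lists were chosen with earlier results of these data known. No set test was run.

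Nearest-neighbour classes used transcripts with an SD over 1.2. The fit was checked on simulated arrays in which all groups had the same spread. That check does not cover the unequal spread of the groups in these data. Alternatives were other thresholds, filters, scalings, groups, covariates, weights, a replicate block, Tukey's comparison and leaving out mice. Tables and plots were made in Python 3.11.15 with pandas 2.3.3, numpy 2.4.6 and matplotlib 3.10.9. PCR values of the study and some genes of its tables are not reported here.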

Additional observations from a re-analysis of the deposited data

Results flagged for a closer look

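Among 45 groups of mice tested (15 transcripts in 3 groups of week 15), 5 held a mouse far from the others by Dixon's ratio of the gap to the range, and chance flags about 1 in 20 groups. For Phex, G-CSF mouse 4 was at 1.68, while the other G-CSF mice were between 1.95 and 2.16. For Ptger4, G-CSF mouse 1 was at 4.88 and the others between 7.03 and 7.84, so this mouse lay against the direction of the call. Without it the Ptger4 difference was +2.36. For Cpne3, G-CSF mouse 4 was at 4.02 and the others between 2.82 and 3.26, also against the direction. For Acot11, vehicle mouse 3 was at 5.52 and the others between 4.16 and 4.71. For Ctsb, G-CSF mouse 6 was at 7.73 and the others between 6.94 and 7.13.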

How the results depend on the processing

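The count of 12 calls between G-CSF and vehicle was 10 to 13 with a fold-change minimum of 1.2 or 2, an intensity filter on 7 arrays, quantile normalization, a floor or an intensity trend, and 8 with the 18S covariate. It was 4 at an adjusted p under 0.05, 6 without a filter, 3 with array weights, 2 in the fit on the 3 groups of week 15, and 0 in the fit on the 14 arrays alone (limma, 1258 transcripts at an unadjusted p under 0.05). It was 30 with the Gapdh 3′ minus 5′ covariate, which kept all 12, 43 without vehicle mice 3 and 5, and 353 (195 higher, 158 lower) with the methods' Tukey comparison, which held all 12. Leaving out 1 mouse at a time gave 4 to 48. The cause of these shifts was not tested.

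With the replicate number as a block the count was 9, of which 7 were among the 12. The numbers did not pair the mice: deviations of vehicle and G-CSF mice with the same number correlated between −0.08 and 0.10 (median 0.03), and 0 of 7 correlated best with its own number. Of the log2 differences of the 12 calls and of Ctsb, Prss12 and Bmpr1a, none reversed under any alternative. Each of these transcripts was counted once in each alternative fit. The call was lost in 124 such cases and gained in 2, Ctsb and Bmpr1a under the Tukey comparison, while 323 kept the side of the threshold. The medians of gene lists moved by less than their spread in 119 cases and by more in 1, the potassium channel subunits, from +0.10 to −0.10 with the median of all transcripts per gene. With 1 or 5 neighbours, 3 G-CSF mice were classed as vehicle. Vehicle mice classed as vehicle were 2 with 1 neighbour or an SD over 1.0 and 4 with 5 neighbours. Without WT mouse 6 of week 11, the median week 11 difference of the calls was +0.01.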
